A study of Drosophila melanogaster with 9 samples.

Results

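The 8 genes described here encode receptors and transporters for glutamate in Drosophila melanogaster. They were taken by their FlyBase symbols and not by a cutoff on their levels, but were chosen with earlier results of these data known. Each matched 1 of the 23932 features in the table of counts per gene. They are the NMDA receptor subunit genes Nmdar1 and Nmdar2, the AMPA-type subunit genes GluRIA and GluRIB, the metabotropic receptor gene mGluR, the glutamate-gated chloride channel gene GluClalpha, the vesicular transporter gene VGlut and the plasma membrane transporter gene Eaat2. All 8 passed the filter on low counts, as did 13076 features in all. RNA was sequenced from polysomes, 80S monosomes and total RNA of whole heads of wild type Dahomey flies aged 0 to 5 days, which received no treatment, with 3 replicate libraries of each. Polysomes are mRNAs that carry several ribosomes and 80S monosomes are single assembled ribosomes with any mRNA they hold. Both were pooled fractions of a sucrose gradient, while total RNA was extracted from lysate that was kept back and not run on the gradient. The comparisons ask whether an mRNA takes a larger share of one fraction than of another.

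Glutamate is the transmitter of fly motor neurons and of many central neurons, where acetylcholine carries most fast excitation. Ionotropic receptors are channels that open when glutamate binds. The NMDA receptor combines an Nmdar1 with an Nmdar2 subunit and takes part in olfactory memory, AMPA-type receptors carry fast cation currents, and GluClalpha forms a chloride channel that inhibits the cell and is a target of ivermectin. The G protein-coupled mGluR signals more slowly. VGlut loads glutamate into synaptic vesicles and marks the neurons that release it, whereas the Eaat family carries excitatory amino acids across the plasma membrane, with Eaat1 as the glial glutamate uptake carrier.

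The libraries held between 13555484 counts, in polysome replicate 1, and 44096558 counts, in 80S monosome replicate 3. The 8 genes had between 362 and 31134 counts in a library. Levels are given as CPM, the usual scaling of a gene's count to the size of its library, here adjusted by TMM. They compare the make-up of fractions, not absolute quantities of mRNA in the head. Markers of neurons, glia, photoreceptors, muscle, fat body and haemocytes were present in every library. The summed level of 6 neuronal markers was 6537 to 6852 CPM in polysomes, 4329 to 4703 CPM in 80S monosomes and 4785 to 5300 CPM in total RNA. The summed level of 8 glial markers was 850.2 to 1061 CPM in polysomes, 967.8 to 1085 CPM in 80S monosomes and 1464 to 1597 CPM in total RNA. Most of this sum came from nrv2 and Eaat1 (means of 609.1 and 573.3 CPM in total RNA), and the list was split. In 80S monosomes over total RNA, repo (log2 fold change 0.61) and loco (0.53) were called higher (adjusted p under 0.01, edgeR). There 3 were called lower, Gat (-0.95), nrv2 (-0.95) and Eaat1 (-0.62), beside 6.68% of all features higher and 8.95% lower. These were named after their values were seen. Of the neuronal markers, 3 of 6 were called higher in polysomes over 80S monosomes (Syt1, brp and Rdl, named after their values were seen). Of all features, 7.87% were called higher in this contrast and 4.31% lower, with an adjusted p under 0.01 (edgeR). The neuronal markers elav (log2 fold change 0.12), nSyb (0.10) and Syx1A (0.19) were not called. In the other marker lists, bt of muscle (1.62) was called higher. There ninaE of photoreceptors (-0.53) and wisp of the female germ line (-1.73) were called lower, and these genes were also named afterwards. No neuronal or glial marker was at 0. Female germ line markers summed to 15.8 to 43.2 CPM in polysomes, 52.9 to 95.4 CPM in 80S monosomes and 17.9 to 47.2 CPM in total RNA, and male germ line markers to at most 0.179 CPM. The part of these cell types in the results below was not tested. For the level of a gene in whole heads, few cells of a type and little RNA per cell cannot be told apart. The contrasts below are between fractions and a part of the lysate that was kept back, not between groups of heads. The same replicate number marks libraries that deviate together, so that a fit with the replicate number as a block is given where it changes a call.

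Between polysomes and 80S monosomes, edgeR's quasi-likelihood test called 1 of the 8 genes higher in polysomes and 0 lower, with a threshold of 0.01 on the adjusted p. Among all features tested, 7.87% were called higher and 4.31% lower, so that 64.6% of the calls were higher (83.4% with only the 6 libraries compared). The gene that passed was Nmdar2. At an unadjusted p under 0.05, 5 of the 8 were higher and 0 lower, and the median log2 fold change of the 8 was 0.31, beside -0.08 over all features. The percentages above hold for the adjusted p only. The share of all features at this unadjusted cutoff was not counted, here or in the later comparisons of levels. DESeq2 called 4 higher and 0 lower, beside 1500 higher and 988 lower of 23932 features. No filter on low counts preceded that fit and only 20689 features had any count, so its share cannot be set beside those of edgeR. With the replicate block 5 were higher, namely Nmdar1, Nmdar2, GluClalpha, mGluR and GluRIB, all of them receptor genes, and 0 were lower. In that fit 12.8% of all features were called higher and 14.2% lower, so that 47.4% of the calls were higher. The count was 4 without 80S monosome replicate 1, beside 1057 higher and 592 lower of 13387 features. The other 3 genes, GluRIA, VGlut and Eaat2, were not called in this contrast under any setting tried.

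**Figure D1:**
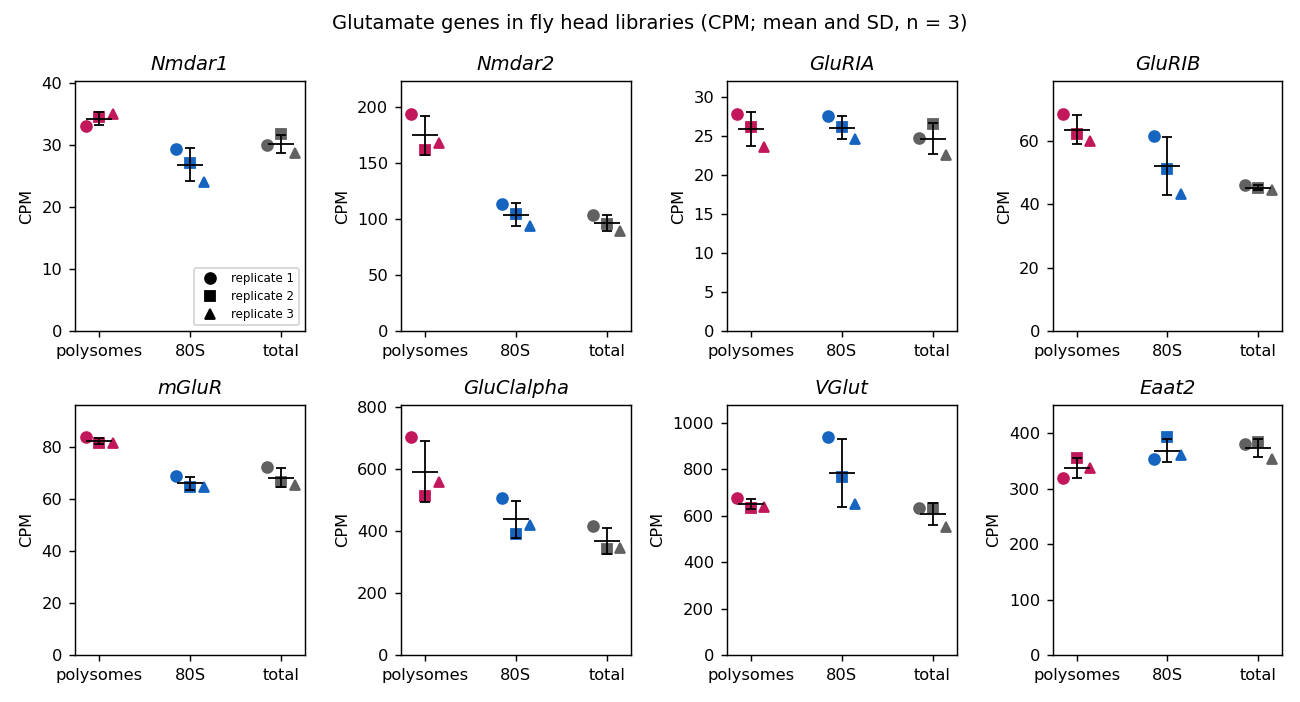
Level of each gene in the 9 libraries, in CPM on a linear axis from 0, with polysomes, 80S monosomes and total RNA side by side. Points are libraries, with a shape for each replicate number, and the horizontal line and bar are the mean and SD of 3 libraries. The 3 polysome libraries of Nmdar2 lie between 162.0 and 194.0 CPM, above all 6 others, whereas the 9 libraries of GluRIA lie between 22.6 and 27.8 CPM.

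Nmdar2 (FBgn0053513, chromosome X, 1483625 to 1507809 on the minus strand of BDGP6.54) encodes the glutamate-binding subunit of the NMDA receptor. It had 194.0, 162.0 and 167.7 CPM in polysome replicates 1, 2 and 3, against 113.5, 104.7 and 93.6 CPM in 80S monosomes and 103.5, 95.6 and 89.2 CPM in total RNA. Each polysome library was above every other library, while 80S monosomes and total RNA overlapped. The log2 fold change of polysomes over 80S monosomes was 0.75 (standard error (SE) 0.10, adjusted p = 0.000418, edgeR), a 1.68-fold difference. Against total RNA it was 0.86 (SE 0.10, adjusted p = 0.000179, edgeR), or 1.82-fold. Nmdar2 passed the threshold in both contrasts under all 16 alternatives, with a highest adjusted p of 0.00294 against 80S monosomes and 0.00195 against total RNA. The 80S monosome level was not past the threshold against total RNA (log2 fold change 0.11, standard error 0.10, adjusted p = 0.447, edgeR).

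Nmdar1 (FBgn0010399, chromosome 3R, 5508842 to 5523328, minus strand) encodes the subunit that every NMDA receptor needs. Its mRNA had 33.1, 34.6 and 35.1 CPM in polysomes, 29.5, 27.1 and 24.1 CPM in 80S monosomes and 30.1, 31.8 and 28.8 CPM in total RNA. The polysome libraries did not overlap with those of 80S monosomes or of total RNA, and 80S monosomes overlapped with total RNA. The log2 fold change over 80S monosomes was 0.35 (SE 0.095, adjusted p = 0.0195, edgeR). It passed the threshold with the replicate block (adjusted p = 0.00177, edgeR), with DESeq2 (adjusted p = 0.000722), with nuclear protein-coding genes alone and without 80S monosome replicate 1. Against total RNA Nmdar1 was not called in polysomes (0.18, adjusted p = 0.151, edgeR) or in 80S monosomes (-0.17, adjusted p = 0.190, edgeR).

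Counts of the paired subunits were also compared within each library, where scaling has no influence. The count ratio of Nmdar1 over Nmdar2 was 0.171, 0.214 and 0.209 in polysomes, 0.259, 0.259 and 0.257 in 80S monosomes and 0.291, 0.332 and 0.323 in total RNA. The fractions did not overlap, with the lowest ratio in polysomes and the highest in total RNA. The mean log2 ratio differed by -0.39 between polysomes and 80S monosomes, by -0.68 between polysomes and total RNA and by -0.28 between 80S monosomes and total RNA. In each comparison the two-sided exact permutation test gave p = 0.1, the smallest that 3 libraries against 3 allow, and 0.129 after adjustment over 9 such tests. This test, also used for the ratios below, does not use the replicate pairs, and a paired exact test with 3 pairs cannot go below 0.25. The direction was the same in all 3 replicate pairs of each comparison. The merged exons are 4170 nt long in Nmdar1 and 8036 nt in Nmdar2, so that these count ratios are not ratios of molecules.

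GluRIA (FBgn0004619, chromosome 3L, 6624032 to 6635059, plus strand) and GluRIB (FBgn0264000, chromosome 3L, 9251978 to 9288522, plus strand) encode AMPA-type subunits. GluRIA had 27.8, 26.2 and 23.6 CPM in polysomes, 27.5, 26.1 and 24.6 CPM in 80S monosomes and 24.8, 26.5 and 22.6 CPM in total RNA, so that all fractions overlapped. Its log2 fold change of polysomes over 80S monosomes was -0.01 (SE 0.0999, adjusted p = 0.957, edgeR) and turned to 0.04 with relative log expression size factors and 0.06 with nuclear protein-coding genes alone. Over total RNA it was 0.07 in polysomes and 0.08 in 80S monosomes (adjusted p = 0.613 and 0.584, edgeR).

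GluRIB had 68.4, 62.1 and 59.8 CPM in polysomes, 61.5, 51.0 and 43.2 CPM in 80S monosomes and 45.9, 45.1 and 44.4 CPM in total RNA. Polysome libraries lay above all total RNA libraries, and 80S monosomes overlapped with both. GluRIB rose in polysomes over total RNA by 0.49 on the log2 scale (SE 0.12, adjusted p = 0.00759, edgeR), or 1.40-fold. This call was near the threshold and was lost in 7 of the 9 fits that left out a library (adjusted p from 0.0113 to 0.0347, edgeR), which were those without 80S monosome replicate 2 or without any 1 of the polysome or total RNA libraries. Over 80S monosomes the value was 0.29 (SE 0.12, adjusted p = 0.0976, edgeR), which passed with the replicate block (adjusted p = 0.00536, edgeR) and without 80S monosome replicate 1 (adjusted p = 0.00975, edgeR).

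The count ratio of GluRIA over GluRIB was 0.407, 0.422 and 0.395 in polysomes, 0.447, 0.512 and 0.569 in 80S monosomes and 0.540, 0.589 and 0.508 in total RNA. Polysomes were below both other groups, which overlapped with each other. The mean log2 ratio differed by -0.31 between polysomes and 80S monosomes and by -0.42 between polysomes and total RNA (exact permutation p = 0.1 for each, 0.129 adjusted). Nmdar2 and GluRIB thus made up more of their pair's counts in the polysome libraries than in any library of 80S monosomes or total RNA.

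**Figure D2:**
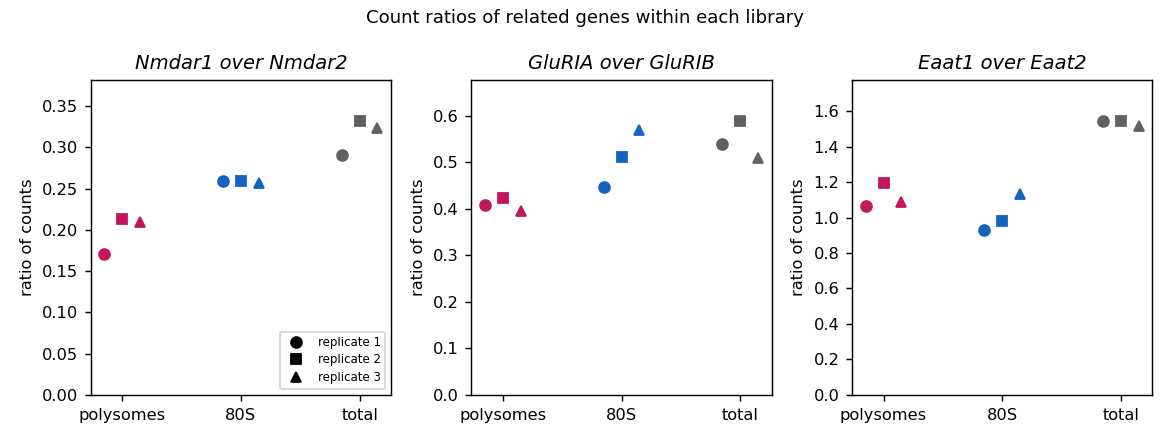
Ratio of counts between related genes within each library, on linear axes from 0, for polysomes, 80S monosomes and total RNA. Each point is 1 library and its shape gives the replicate number. Nmdar1 over Nmdar2 lies between 0.171 and 0.214 in polysomes and at or above 0.257 in every other library, and Eaat1 over Eaat2 is highest in total RNA (1.52 to 1.55).

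The metabotropic receptor gene mGluR (FBgn0019985, chromosome 4, 936819 to 949441, plus strand) had 83.8, 81.8 and 81.6 CPM in polysomes, 68.9, 64.6 and 64.7 CPM in 80S monosomes and 72.5, 66.8 and 65.5 CPM in total RNA. Its polysome libraries lay close together and above all 6 other libraries. The log2 fold change over 80S monosomes was 0.32 (SE 0.077, adjusted p = 0.0119, edgeR), just outside the threshold. It passed under 7 of 16 alternatives, among them the replicate block (adjusted p = 0.000698, edgeR), DESeq2 (adjusted p = 7.14e-05), relative log expression size factors, and fits without 80S monosome replicate 1 or total RNA replicate 1. Over total RNA it was 0.27 in polysomes (SE 0.077, adjusted p = 0.0170, edgeR) and -0.05 in 80S monosomes (adjusted p = 0.673, edgeR). The value over total RNA in polysomes passed under 6 of 16 alternatives, which were the block (adjusted p = 0.00171, edgeR), DESeq2 (adjusted p = 0.000387), relative log expression size factors, nuclear protein-coding genes alone, and fits without 80S monosome replicate 1 or total RNA replicate 1. An annotated copy of the transposable element INE-1 shares 57 nt of exon with mGluR on its strand, the single overlap of this kind among the 8 genes.

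GluClalpha (FBgn0024963, chromosome 3R, 19730715 to 19775231, plus strand) had 701.4, 513.3 and 558.0 CPM in polysomes, 504.9, 390.4 and 417.3 CPM in 80S monosomes and 415.9, 343.0 and 343.5 CPM in total RNA. Replicate 1 was the highest of its fraction in all 3, and within each replicate number the level was highest in polysomes and lowest in total RNA. GluClalpha rose in polysomes over total RNA by 0.68 on the log2 scale (SE 0.14, adjusted p = 0.00323, edgeR), or 1.61-fold. The call was lost without polysome replicate 1 (adjusted p = 0.0129, edgeR), polysome replicate 3 (0.0101), total RNA replicate 2 (0.0184) or total RNA replicate 3 (0.0192). The value over 80S monosomes was 0.43 (SE 0.14, adjusted p = 0.0445, edgeR), although the 2 groups did not overlap. With the block, which takes up the difference between replicate numbers, the adjusted p was 6.97e-05 over 80S monosomes and 1.75e-07 over total RNA (edgeR). The 80S monosome level over total RNA (0.25, adjusted p = 0.202, edgeR) passed with the block alone (adjusted p = 0.00654, edgeR).

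VGlut (FBgn0031424, chromosome 2L, 2400295 to 2410662, plus strand), the marker of neurons that release glutamate, had 677.7, 635.3 and 639.2 CPM in polysomes, 938.1, 765.9 and 649.6 CPM in 80S monosomes and 634.6, 633.2 and 551.4 CPM in total RNA. The 80S monosome libraries spread most, and their lowest lay within the polysome range but above all total RNA libraries. The log2 fold change was -0.27 over 80S monosomes (SE 0.13, adjusted p = 0.152, edgeR, and 0.0209 with the block) and 0.10 over total RNA (adjusted p = 0.555, edgeR). For 80S monosomes over total RNA it was 0.37 (SE 0.13, adjusted p = 0.0472, edgeR), which passed with the block alone (adjusted p = 0.00152, edgeR).

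Eaat2 (FBgn0026438, chromosome 2L, 737212 to 744395, minus strand) encodes a carrier related to the glial Eaat1. It had 319.0, 355.5 and 338.0 CPM in polysomes, 353.5, 392.9 and 360.3 CPM in 80S monosomes and 380.9, 384.6 and 354.1 CPM in total RNA. Within each replicate number the polysome level was the lowest, but the fractions overlapped. The log2 fold change was -0.13 over 80S monosomes (SE 0.086, adjusted p = 0.313, edgeR) and -0.14 over total RNA (adjusted p = 0.205, edgeR), and it was -0.02 between 80S monosomes and total RNA (adjusted p = 0.905, edgeR). The count ratio of Eaat1 over Eaat2 was 1.06, 1.20 and 1.09 in polysomes, 0.932, 0.981 and 1.13 in 80S monosomes and 1.54, 1.55 and 1.52 in total RNA. Both ribosome fractions lay below total RNA, by -0.46 for polysomes and -0.60 for 80S monosomes in mean log2 ratio (exact permutation p = 0.1 for each, 0.129 adjusted), and they overlapped with each other.

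Over total RNA, 3 of the 8 genes rose in polysomes (Nmdar2, GluClalpha and GluRIB) and 0 fell, with 4 higher and 0 lower at an unadjusted p under 0.05 (share of all features not counted). Among all features 10.4% were called higher and 12.2% lower, so that 46.2% of the calls were higher (57.3% with nuclear protein-coding genes alone). The median log2 fold change was 0.23 over the 8 genes and -0.05 over all features. With the block mGluR was added, making 4 of 8 higher, beside 17.9% of all features higher and 23.4% lower. The count was also 4 with DESeq2, with relative log expression size factors and with nuclear protein-coding genes alone. Over all features, 2144 of 23932, 1570 of 13076 and 1267 of 10422 were higher in these fits, in that order, where the 23932 of DESeq2 include features with few or no counts. The count was 1, Nmdar2, without polysome replicate 1, polysome replicate 3, total RNA replicate 2 or total RNA replicate 3. There 871 of 13273, 812 of 13292, 693 of 13395 and 689 of 13382 features were higher, in that order. In 80S monosomes over total RNA, 0 of the 8 genes were called by edgeR or by DESeq2, while 6.68% of all features were called higher and 8.95% lower. At an unadjusted p under 0.05 there was 1, VGlut, again without a share of all features. The median was 0.10, beside -0.02 over all features, and with the block 2 genes were higher (GluClalpha and VGlut, beside 15.3% of all features higher and 19.2% lower). The 3 comparisons share libraries, and their values are therefore not independent of each other.

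**Figure D3:**
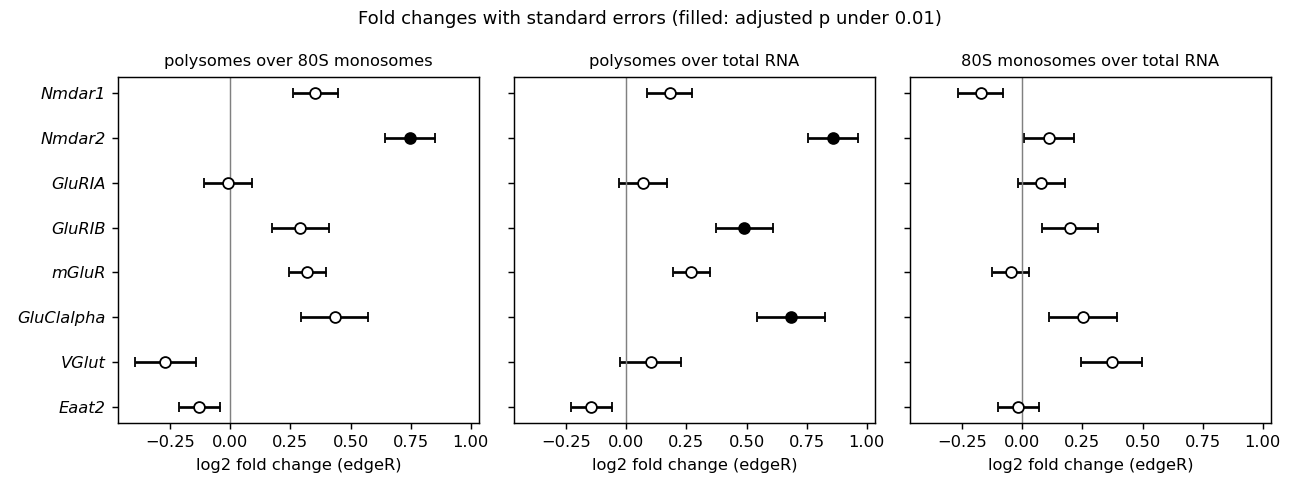
Log2 fold change of each gene in the 3 comparisons, on the horizontal axis, with bars of 1 standard error from edgeR's fit to all 9 libraries. Filled points passed an adjusted p under 0.01 and the vertical line marks 0. Nmdar2 is filled in both comparisons of polysomes (0.75 and 0.86), GluClalpha and GluRIB in polysomes over total RNA, and no gene is filled in 80S monosomes over total RNA.

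To compare levels between genes, CPM were divided by the length of the merged exons in kb. In polysomes the order was VGlut (113.8 ± 4.10 CPM per kb, SD, n = 3), GluClalpha (89.1 ± 14.8), Eaat2 (84.5 ± 4.56), Nmdar2 (21.7 ± 2.13), mGluR (13.0 ± 0.195), GluRIB (8.83 ± 0.622), Nmdar1 (8.22 ± 0.254) and GluRIA (6.79 ± 0.559). In this fraction GluClalpha overlapped with Eaat2 and GluRIB with Nmdar1. In 80S monosomes VGlut was again first (137.3 ± 25.4 CPM per kb), followed by Eaat2 (92.3 ± 5.27) and GluClalpha (66.0 ± 9.03), and at the low end GluRIB overlapped with GluRIA and GluRIA with Nmdar1. In total RNA the first 3 genes stood in the same order as in 80S monosomes. There Nmdar2 (11.96 ± 0.887 CPM per kb) overlapped with mGluR (10.8 ± 0.589), from which it stood apart in polysomes, and GluRIB was the lowest of all (6.28 ± 0.107) without parting from GluRIA (6.46 ± 0.520). VGlut, Eaat2 and GluClalpha were thus above the other 5 genes in each fraction.

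The genes differ in the length of their mRNAs, which were taken from the annotation. The longest annotated coding sequence (CDS) was 1182 codons in GluRIB, 1083 in Nmdar2, 997 in Nmdar1, 991 in GluRIA, 976 in mGluR, 632 in VGlut, 579 in Eaat2 and 463 in GluClalpha. Except for GluClalpha, which was at the 51.0 percentile, these lay between the 63.7 and the 89.5 percentile of the 10424 protein-coding genes tested, whose median was 454.5 codons. The median 3′-UTR over a gene's transcripts was longest in VGlut (2964 nt, the 99.1 percentile) and shortest in GluRIA (296 nt, the 55.6 percentile). Nmdar1, GluRIA and mGluR differ by few codons in their longest CDS and had log2 fold changes over 80S monosomes of 0.35, -0.01 and 0.32. The CDS of mGluR transcripts is as short as 308 codons, with a median of 754.5. GluClalpha, with the shortest CDS, had 0.43. Across the 8 genes, which share all 9 libraries, Spearman's rho of the fold change was 0.26 for the longest CDS, -0.43 for the median 5′-UTR and -0.41 for the median 3′-UTR, given as a description.

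**Figure D4:**
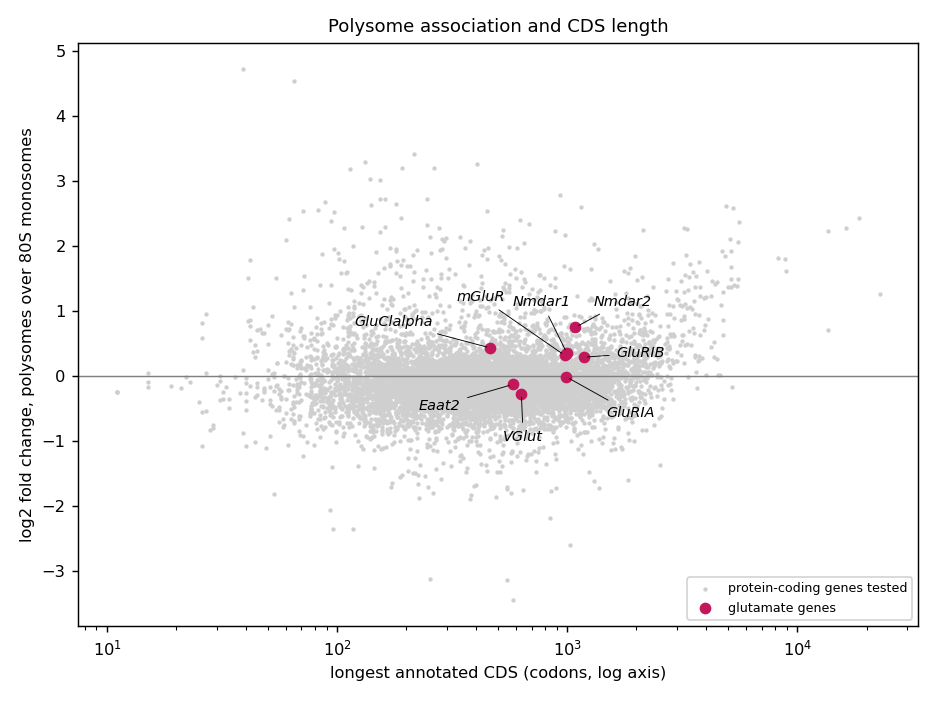
Log2 fold change of polysomes over 80S monosomes against the longest annotated CDS in codons (log axis) for the protein-coding genes tested (grey) and the 8 glutamate genes (red, labelled). The 8 genes span 463 to 1182 codons, and GluRIA (-0.01) lies below mGluR (0.32) and Nmdar1 (0.35), which lie close together, at nearly the same longest CDS.

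Of the 8 genes, 6 had more than 1 annotated transcript with enough counts for a test of isoform usage. Without the block, no gene of the 6 passed in polysomes against 80S monosomes (edgeR's diffSpliceDGE with Simes' method, adjusted p = 1 for each), and 0 had an unadjusted p under 0.05. None passed with the block either, where GluClalpha had an unadjusted p of 0.0119 (adjusted p = 0.702, Simes' method). Without the block the background was 16 of 6108 genes, or 0.262%, and 1.02% of genes were under 0.05 unadjusted. With the block 52 of 6108 genes passed by Simes' method, and the share under 0.05 unadjusted was not counted. Reads shared by several transcripts were split evenly between them, so that differences between transcripts are damped. The share of counts on the Nmdar2 transcript with the longest 3′-UTR (Nmdar2-RG, 2924 nt) was 55.2%, 59.5% and 61.8% in polysomes, 52.5%, 55.5% and 57.9% in 80S monosomes and 63.1%, 61.7% and 61.3% in total RNA. In 80S monosomes this share was below that in every total RNA library, and within each replicate number it was lower than in polysomes. Nmdar2-RG was the transcript with the most assigned counts in all 9 libraries. It is also the longest (6775 nt, with 4837 nt for the next, Nmdar2-RF). The shares given here and below were not corrected for transcript length, so they are not shares of molecules.

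For GluRIB, the transcript with a 3′-UTR of 3141 nt (GluRIB-RC) held 41.5%, 45.6% and 43.9% of the counts in polysomes, 39.95%, 43.1% and 45.0% in 80S monosomes and 50.1%, 49.8% and 49.0% in total RNA. For mGluR, the transcript with 2821 nt (mGluR-RB) held 48.95%, 53.5% and 52.5% in polysomes, 49.8%, 51.6% and 49.7% in 80S monosomes and 55.2%, 55.1% and 54.6% in total RNA. In both genes the ribosome fractions overlapped with each other and lay below total RNA. The 4 GluClalpha transcripts with 3633 nt held 74.1% to 78.8% in polysomes, 77.7% to 78.7% in 80S monosomes and 76.9% to 78.9% in total RNA, which overlapped. Against total RNA, in tests added after these shares had been seen, no gene was called by Simes' method in either fraction, without or with the block, and 0 had an unadjusted p under 0.05 without it. An F test with the block, also added then, called Nmdar2 (adjusted p = 6.63e-05, edgeR) and mGluR (adjusted p = 0.00233, edgeR) in 80S monosomes against total RNA, but not GluRIB (adjusted p = 0.0634, edgeR), beside 7.01% of all genes. The F test without the block called neither Nmdar2 (adjusted p = 0.140, edgeR) nor mGluR (adjusted p = 0.0197, edgeR). Transcripts that share reads are not independent in that test. It called none of the 6 genes in polysomes against either group. For Nmdar2 against 80S monosomes its unadjusted p with the block was 0.00761 (adjusted p = 0.236, F test).

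**Figure D5:**
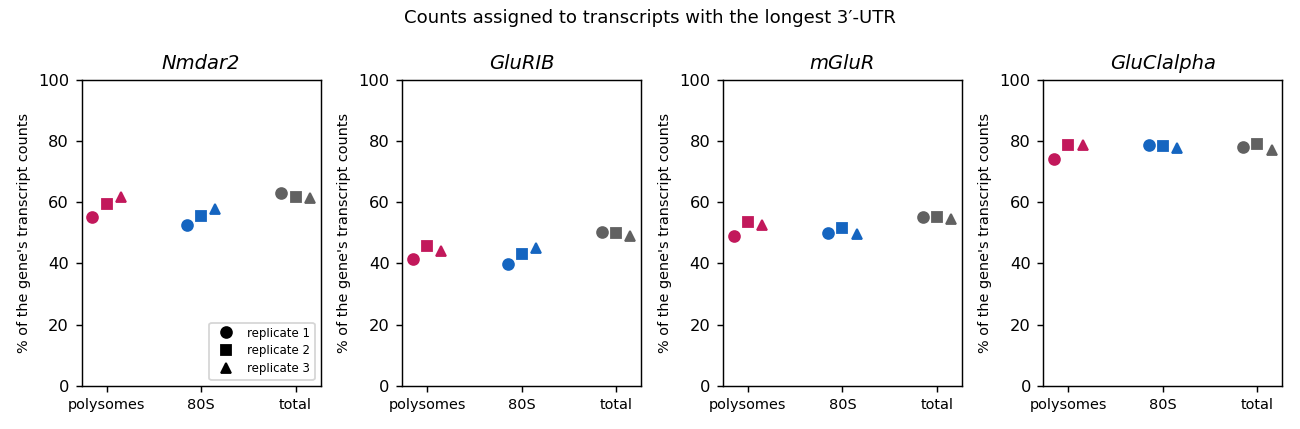
Share of each gene's transcript counts, in percent on an axis from 0 to 100, that was assigned to its transcripts with the longest 3′-UTR. Each point is 1 library, with polysomes, 80S monosomes and total RNA side by side and a shape for each replicate number. In GluRIB and mGluR the total RNA libraries (49.0% to 50.1% and 54.6% to 55.2%) are above all libraries of both ribosome fractions.

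Over the 9 libraries, the log2 CPM of GluRIB followed the mean of the other 7 genes most closely (Pearson r = 0.96), then GluClalpha and Nmdar2 (0.88 each), mGluR (0.83), Nmdar1 (0.61), GluRIA (0.52) and VGlut (0.21). Eaat2 ran against it (-0.69). These values describe 9 libraries that share fractions and replicate numbers. Other nuclear protein-coding genes were ranked where they averaged 10 CPM or more (6155 genes), and those most like the mean of the 8 genes were Syt12 (r = 0.990), which encodes a synaptotagmin, CG42404 (0.988), CG34357 (0.985), CG17724 (0.985) and mtt (0.984), which encodes a receptor related to mGluR. The level of mtt was 43.9 ± 3.07 CPM in polysomes, 35.7 ± 6.24 CPM in 80S monosomes and 29.8 ± 2.15 CPM in total RNA (SD, n = 3 each).

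A list of 24 other genes of glutamate signalling and metabolism was used for comparison, of which 23 were tested and GluRIIB, a subunit of the neuromuscular receptor, was at most 0.298 CPM and did not pass the filter. In polysomes over 80S monosomes, edgeR called 0 of the 23, beside 7.87% of all features higher and 4.31% lower. At an unadjusted p under 0.05, 4 were higher and 2 lower (share of all features not counted). DESeq2 called 1 higher, beside 1500 of 23932 features, and the median log2 fold change (edgeR) was -0.07. With the block 4 were higher and 1 lower, beside 12.8% and 14.2% of all features. Over total RNA, 3 rose in polysomes and 5 fell, named here after their values were seen, beside 10.4% and 12.2% of all features. With the block 5 were higher and 9 lower, beside 17.9% and 23.4%. Those that rose were Shank (annotated as Prosap, 0.66), a postsynaptic scaffold, mtt (0.55) and Neto (0.50), an auxiliary protein of glutamate receptors. Those that fell were Eaat1 (-0.60), Ekar (-0.66), a kainate-type receptor of the eye, gb (-0.76), a glial cystine and glutamate exchanger, Got1 (-0.69), an aspartate aminotransferase, and Nmda1 (-0.91), which is not a receptor subunit. In 80S monosomes over total RNA, 0 rose and 4 fell, beside 6.68% and 8.95% of all features. Those that fell were Eaat1 (-0.62), Ekar (-0.44), Nmda1 (-0.87) and the glutamine synthetase gene Gs1 (-0.51). At an unadjusted p under 0.05, 4 rose (share of all features not counted), and DESeq2 called 1 higher, beside 1578 of 23932 features. With the block 3 were higher and 8 lower, beside 15.3% and 19.2%. With nuclear protein-coding genes alone 0 were higher and 2 lower, beside 756 higher and 682 lower of 10422 features. With a library left out, 1 to 4 rose in polysomes (1 without polysome replicate 1 or 3, or without total RNA replicate 2 or 3). Over all features, 871 of 13273, 812 of 13292, 693 of 13395 and 689 of 13382 were higher in these fits with 1, in that order. In the fit with 4, without 80S monosome replicate 1, 1663 of 13387 were higher. From 2 to 7 of the list fell, the fewest without total RNA replicate 2 (778 of 13395 features lower). There were 3 without polysome replicate 3 (864 of 13292) or total RNA replicate 1 (788 of 13396), and 7 without polysome replicate 2 (1635 of 13355). In 80S monosomes 0 to 5 fell, with 0 without total RNA replicate 2, 4 or 5 without polysome replicate 1 or 2, and 1 or 2 without any of the other libraries. Over all features, 685 of 13395 were lower without total RNA replicate 2, 1396 of 13273 without polysome replicate 1 and 1291 of 13355 without polysome replicate 2. The other fits had from 603 (of 13396, without total RNA replicate 1) to 920 (of 13292, without polysome replicate 3).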

How the data were processed

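Per the labels and the study's methods, the authors depleted ribosomal RNA, sequenced stranded libraries, trimmed reads with Trimmomatic 0.33, mapped them with STAR 2.7.10a to BDGP6.32 and counted them with featureCounts per gene and per transcript (Ensembl 109). Reads with several positions or features on a strand were split evenly, and near-identical copies share reads. The tables deposited hold estimated counts, not normalized. The values of the 8 genes were not whole numbers in 5 to 9 of 9 libraries.

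Here the counts were rounded. They were scaled by TMM, filtered with filterByExpr and tested with edgeR 4.0.16 (R 4.3.3) over all 9 libraries with robust quasi-likelihood dispersions and no block, with Benjamini-Hochberg adjustment over 13076 features and a threshold of 0.01. Standard errors are the log2 fold change over the square root of F. The depth of 13555484 to 44096558 counts sets the counting error. Positions and lengths came from Ensembl 115 (BDGP6.54), in which 23851 of 23932 features were matched. Replicates are separate samples in the labels, and whether they came from separate flies is not given in the sources used here, so that p-values measure the spread between these samples. No library was a copy of another of its fraction (chi-square per degree of freedom of at least 12.6), and this value was not computed between fractions. The correlation of deviations from fraction means was 0.18 to 0.42 in the 9 pairs that share a number and negative in the 18 others, so the numbers pair the libraries. Scripts were tested on simulated data. DESeq2 1.42.0 with a local fit, other scalings and filters, 6 libraries, the replicate block and each library left out were the alternatives. All 8 genes are named, with those of the other list past the threshold in polysomes over 80S monosomes (others are marked) and the 5 most correlated genes. The genes, lists and tests were chosen with earlier results of these data known.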

Additional observations from a re-analysis of the deposited data

How the results depend on the processing

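Among the 8 genes, the number higher in polysomes than in 80S monosomes (1) was 2 with relative log expression size factors, 3 with nuclear protein-coding genes alone, 2 with a filter of at least 1 CPM in 3 libraries, 4 with DESeq2, 5 with the replicate block, and 1 to 4 with a library left out (4 without 80S monosome replicate 1 and 2 without total RNA replicate 1). The number higher in polysomes than in total RNA (3) was 1 to 4 with a library left out, and the median there (0.23) was 0.29 with relative log expression size factors, 0.32 with nuclear protein-coding genes alone and 0.20 to 0.32 with a library left out. For 80S monosomes over total RNA, 2 genes were higher with the block, and the median (0.10) was -0.0058 to 0.15 with a library left out (lowest without total RNA replicate 3). The GluRIA value over 80S monosomes (-0.01) was 0.040 with relative log expression size factors, 0.056 with nuclear protein-coding genes alone, 0.015 with at least 1 CPM, 0.026 with DESeq2, 0.052 with the 6 libraries, and -0.059 to 0.049 with a library left out. In 80S monosomes over total RNA, the value of Eaat2 was 0.014 with nuclear protein-coding genes alone, and with a library left out it was -0.10 to 0.016 for Eaat2, -0.12 to 0.014 for mGluR and -0.026 to 0.12 for GluRIA. The cause of these changes was not tested. The block changed no call of the 8 genes other than those given with it above. Features higher in polysomes than in 80S monosomes numbered 1098 of 13076 with relative log expression size factors and 529 of 10422 with nuclear protein-coding genes alone. They numbered 978 of 11220 with at least 1 CPM and 1007 of 13396 without total RNA replicate 1. Over all features, the 1592 calls between polysomes and 80S monosomes became 740 with nuclear protein-coding genes alone, 2488 with DESeq2, 1021 with the 6 libraries and 3533 with the block, and 849 without polysome replicate 3. Against total RNA, the 2959 calls in polysomes became 5405 and the 2043 in 80S monosomes 4506 with the block, while DESeq2 gave 4181 and 3414, and without total RNA replicate 2 there were 1471 and 884. With 3 libraries a group, ratios within libraries cannot reach an exact p below 0.1 (0.25 when paired).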
